A study of Mus musculus with 4 samples.

Results

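The collagen chain genes are the 44 of 22180 genes in the array annotation whose symbol has the form Col, number, a, number, each read by the probe set with the highest mean where a gene had several. They were divided by structure into 11 fibrillar genes, 6 basement membrane genes, 9 FACIT genes (fibril-associated collagens with interrupted triple helices) and 18 others. Expression was measured on 4 mouse arrays, 1 per condition and none replicated. The first was a bulk culture of reprogrammable mouse embryonic fibroblasts at day 6 of doxycycline with Firefly knockdown, the control because Firefly luciferase is an insect gene, and the second was the same kind of culture with Sumo2 knockdown. The other arrays held induced pluripotent stem cells (iPSC) derived after Sumo2 knockdown, 1 line labelled 38 h and 1 labelled 10 day, a time whose start the labels do not give. All 4 share the strain Black6-129X1/SvJ, pooled male and female material, embryonic stem cell medium with serum, and a treatment text that names ascorbic acid and doxycycline. Ascorbic acid is a cofactor of the enzymes that hydroxylate collagen, and it was given in every group, the control included. A day 6 culture is a mixture of cells, and the iPSC are labelled as stable clones, without saying how many an array holds; in such bulk RNA, fewer cells of a type and less RNA per cell cannot be told apart.

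Collagens are secreted proteins of 3 chains wound into a triple helix. Fibrillar collagens form the fibres that give connective tissue its tensile strength, type IV collagen forms the sheet-like network of basement membranes, and FACIT collagens sit on the surface of fibrils. Fibroblasts are a main source of the fibrillar types I, III and V and of the microfibril type VI, while cells of the early mouse embryo lay down basement membranes with type IV collagen.

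Values are log2 expression, so 1 unit is 2-fold. A measuring floor was set at the median of all single-gene probe sets, 6.64 to 6.67 on the 4 arrays, and values under it were treated as background. Of the 44 genes, 20 lay at or above the floor on all 4 arrays, 9 on some and 15 on 0 of them; 25 had a mean over the arrays above the mean floor of 6.66. The Sumo2 transcript read 10.65 with Firefly knockdown and 10.56 with Sumo2 knockdown (93.8% of the control), so the second array is called the culture labelled Sumo2 knockdown. The cell types matched their labels in part. Of 8 pluripotency markers, 7 were at or above the floor in each iPSC line, against 2 in the Firefly and 4 in the labelled Sumo2 culture. Of 10 fibroblast markers, 6 and 5 were at or above the floor in the day 6 cultures (in that order) and 7 and 6 in the 38 h and 10 day lines. The log2 of their summed level was 13.18, 12.84, 12.11 and 11.84 in the order Firefly, labelled Sumo2, 38 h and 10 day. The list split: 2 of its genes fell from the cultures to the lines, 2 rose and 6 did not pass the limma test used below. Those that fell were Thy1, a surface marker (11.71, 11.23, 8.85 and 8.69), and Prrx1, a mesenchymal transcription factor (11.67, 11.58, 9.56 and 9.11), both still above the floor in the lines. Those that rose were Postn, a matrix protein gene (6.58, 6.00, 9.05 and 8.27), and Pdgfra, a growth factor receptor gene (5.22, 6.10, 7.56 and 6.76), each from below the floor. Counted from the floor they rose at least 4.01-fold and 1.41-fold, so Pdgfra was under 2-fold in that way. Fbln2, a matrix protein gene, read 10.23, 9.67, 10.71 and 10.59. The part of fibroblast transcripts in the collagen levels of the lines was not tested. Of the 5 osteoblast, 6 endothelial, 5 macrophage and 4 keratinocyte markers, 0 to 2 of each list were at or above the floor on any array. Some of these were bright. In the same order of arrays Alpl read 8.57, 9.41, 10.40 and 10.68, and Tek 10.50, 10.50, 7.95 and 8.17. Pecam1 read 6.56, 6.39, 9.54 and 10.18, Cd68 8.69, 8.72, 9.47 and 10.02, and Krt10 6.96, 7.11, 6.70 and 6.36.

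The type IV genes lie in head-to-head pairs, and Col4a1 and Col4a2, which encode the chains found in nearly every basement membrane, start so close to each other that their promoter windows share 78 bases. The windows below are from RefSeq (GRCm38.p6), 250 bases before to 50 after each start, printed 5′ to 3′ on the gene's own strand. Those of Col4a1 (chr8:11312777-11313076, minus strand) and Col4a2 (chr8:11312555-11312854, plus strand) are shown because this pair moved together on all 4 arrays. Those of Col15a1 (chr4:47207762-47208061, plus strand) and of the upstream start of Col18a1 (chr10:77166481-77166780, minus strand) are shown because these related genes moved in opposite directions. Capitals mark every match, on either strand, to any of 3 promoter motifs. The GC box was searched as GGGCGG. The CCAAT box was searched by the letters of its name. The TATA box was searched as TATAAA.
Col4a1: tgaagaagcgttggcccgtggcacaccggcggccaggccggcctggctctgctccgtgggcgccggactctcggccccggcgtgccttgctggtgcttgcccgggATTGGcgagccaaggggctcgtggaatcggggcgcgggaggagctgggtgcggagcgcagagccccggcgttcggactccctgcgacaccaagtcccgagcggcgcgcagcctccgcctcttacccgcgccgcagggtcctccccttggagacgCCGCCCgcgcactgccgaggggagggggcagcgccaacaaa
Col4a2: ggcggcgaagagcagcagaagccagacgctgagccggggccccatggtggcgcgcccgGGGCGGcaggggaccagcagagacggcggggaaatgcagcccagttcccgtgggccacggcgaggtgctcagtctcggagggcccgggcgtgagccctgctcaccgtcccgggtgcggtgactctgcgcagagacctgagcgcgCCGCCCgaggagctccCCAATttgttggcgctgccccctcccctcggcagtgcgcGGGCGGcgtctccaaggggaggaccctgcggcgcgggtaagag
Col15a1: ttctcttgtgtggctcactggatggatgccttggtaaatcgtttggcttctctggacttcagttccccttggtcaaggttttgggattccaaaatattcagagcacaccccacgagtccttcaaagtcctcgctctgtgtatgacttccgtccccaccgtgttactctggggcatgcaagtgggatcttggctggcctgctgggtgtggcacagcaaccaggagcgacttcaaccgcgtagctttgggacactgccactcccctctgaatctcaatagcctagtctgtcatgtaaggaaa
Col18a1: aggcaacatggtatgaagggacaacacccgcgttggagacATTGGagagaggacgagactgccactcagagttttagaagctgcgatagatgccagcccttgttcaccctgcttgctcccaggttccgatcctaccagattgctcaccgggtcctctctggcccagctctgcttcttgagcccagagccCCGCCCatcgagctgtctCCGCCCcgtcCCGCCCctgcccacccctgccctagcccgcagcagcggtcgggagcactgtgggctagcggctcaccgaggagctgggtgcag
The Col4a1 window holds 1 GC box and 1 CCAAT box, the Col4a2 window 3 and 1, and the upstream Col18a1 window 3 and 1. None of the motifs is in these letters of the Col15a1 window, nor in the window of the other Col18a1 start (chr10:77113656-77113955, minus strand). Which Col18a1 start was in use on the arrays was not tested. The GC box of Col4a1 and the last of the 3 in the Col4a2 window are the same bases. They lie in the 78 shared bases, are read on opposite strands and are counted in both windows. Windows were found for 35 of the 44 collagen genes (38 windows). Of these, 60.5% hold a GC box, against 35.7% of all 32851 windows, with a median GC content of 59.8% against 52.7%. A CCAAT box is in 34.2% of the collagen windows and 37.4% of all, and a TATA box in 13.2% and 13.6%. A match is a description of the letters and not a site.

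The main comparison asked how the collagen genes of the iPSC lines differed from those of the day 6 cultures. Rose and fell below mean a limma adjusted p under 0.05 over all 22180 genes together with at least a 2-fold gap between the averages of the iPSC pair and the day 6 pair. Of the 44 collagen genes, 7 fell (15.9%, background 5.44% of all genes) and 2 rose (4.55%, background 8.3%). With no size rule 9 were lower (background 13.1%) and 2 higher (background 16.2%). Those that fell were Col4a1, Col4a2 and Col4a5 of the basement membrane class and Col6a1, Col6a2, Col6a3 and Col15a1 of the other collagens. Those that rose were Col12a1 and Col18a1. Of the fibrillar genes 0 passed, and 3 had an unadjusted limma p under 0.05 downwards (background 21.2% of all genes) and 1 upwards (background 21.4%). The median difference was -0.26 over the 44 genes and -0.06 over all genes. Among the 25 genes with a mean above the floor it was -0.30, against 0.17 over all 11514 such genes, where the background was 8.83% lower and 14.1% higher. Both iPSC arrays lay below both day 6 arrays for 32 of 44 collagen genes (72.7%, background 39.4%) and above both for 4 (9.09%, background 31.5%). Among the 25 with a mean above the floor these were 15 (60%, background 31.3%) and 4 (16%, background 48%). The arrays of a side are different conditions and not replicates, so the error of this test also holds whatever knockdown and line contributed.

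**Figure D1:**
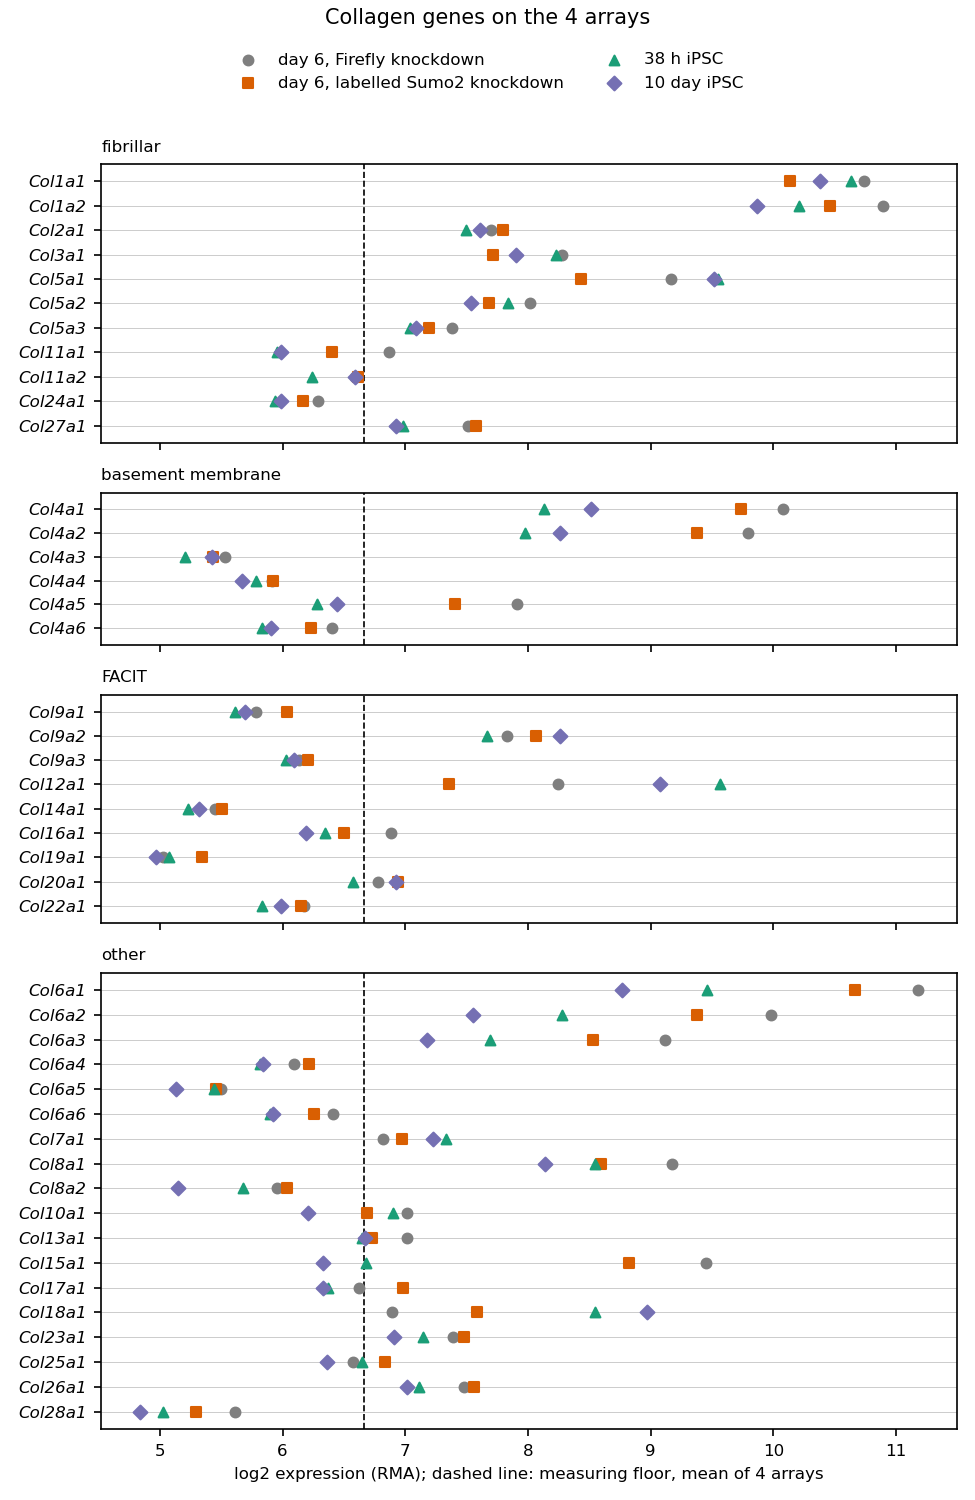
Log2 expression (x axis) of all 44 collagen genes (y axis) by class, 1 point per array and no error bars because each condition has 1 array; the dashed line is the mean measuring floor, 6.66. Col4a1, Col4a2, the Col6a1 to Col6a3 genes and Col15a1 lie to the right in both day 6 cultures, Col12a1 and Col18a1 in both iPSC lines, and Col1a1 and Col3a1 overlap.

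In the basement membrane class, Col4a1 read 10.08 in the Firefly culture, 9.74 in the labelled Sumo2 culture, 8.13 in the 38 h line and 8.51 in the 10 day line. Both lines were below both cultures, and the gene fell 3.0-fold (log2 difference -1.59, SE 0.21, limma adjusted p = 0.00323). Its partner Col4a2 read 9.79, 9.38, 7.98 and 8.26 in the same order of arrays. It too kept the lines apart from the cultures and fell 2.76-fold (-1.47, SE 0.21, limma adjusted p = 0.00433). The order of the arrays was the same for both genes, Firefly highest and 38 h lowest. Col4a5, an X-linked chain of kidney and epithelial basement membranes, read 7.91, 7.41, 6.28 and 6.44. Both lines were below the floor, so counted from it Col4a5 fell at least 1.995-fold, just under 2-fold. As read, the difference was -1.30 (SE 0.22, limma adjusted p = 0.00684). These 3 genes passed with each array left out in turn. Col4a6, the head-to-head neighbour of Col4a5, and the pair Col4a3 and Col4a4, whose chains join that of Col4a5 in the kidney, lay below the floor on all 4 arrays, between 5.20 and 6.40, and are not readable here.

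Type VI collagen makes beaded microfilaments around cells, and its main chains are encoded by Col6a1, Col6a2 and Col6a3, the first pair of them neighbours on chromosome 10. Col6a1 read 11.18, 10.67, 9.46 and 8.77 (Firefly, labelled Sumo2, 38 h, 10 day) and fell 3.51-fold (-1.81, SE 0.27, limma adjusted p = 0.00498). Col6a2 read 9.98, 9.38, 8.27 and 7.55 and fell 3.39-fold (-1.76, SE 0.31, limma adjusted p = 0.00807). Col6a3 on chromosome 1 read 9.12, 8.53, 7.69 and 7.18 and fell 2.62-fold (-1.39, SE 0.27, limma adjusted p = 0.0122). The 4 arrays stood in one order for all 3 genes, with the Firefly culture highest and the 10 day line lowest. A second, dimmer Col6a1 probe set read 9.97, 9.21, 6.59 and 5.91, a difference of -3.34. Without the Firefly array the 3 genes were at -1.56, -1.46 and -1.09 and no longer passed (limma adjusted p = 0.0513, 0.0693 and 0.0852). Col6a4, Col6a5 and Col6a6, whose chains are close to that of Col6a3, lay between 5.13 and 6.41 and below the floor everywhere.

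Types XV and XVIII are the multiplexins, related collagens of the basement membrane zone with an interrupted helix; a fragment of the type XVIII chain is endostatin, an inhibitor of vessel growth. They went opposite ways. Col15a1 read 9.45 and 8.83 in the day 6 cultures and 6.68 and 6.33 in the 38 h and 10 day lines. The 38 h value was just above the floor and the 10 day value below it, and the gene fell at least 5.52-fold counted from the floor (-2.63 as read, SE 0.26, limma adjusted p = 0.00122), the largest difference among the 44 collagen genes. Col18a1 read 6.89, 7.59, 8.55 and 8.97 and rose 2.87-fold (1.52, SE 0.28, limma adjusted p = 0.00993). Here the Firefly culture was lowest and the 10 day line highest, and the labelled Sumo2 culture stood between the control and the lines. Without the Firefly array Col18a1 was at 1.17 and did not pass (limma adjusted p = 0.0609), while Col15a1 did.

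**Figure D2:**
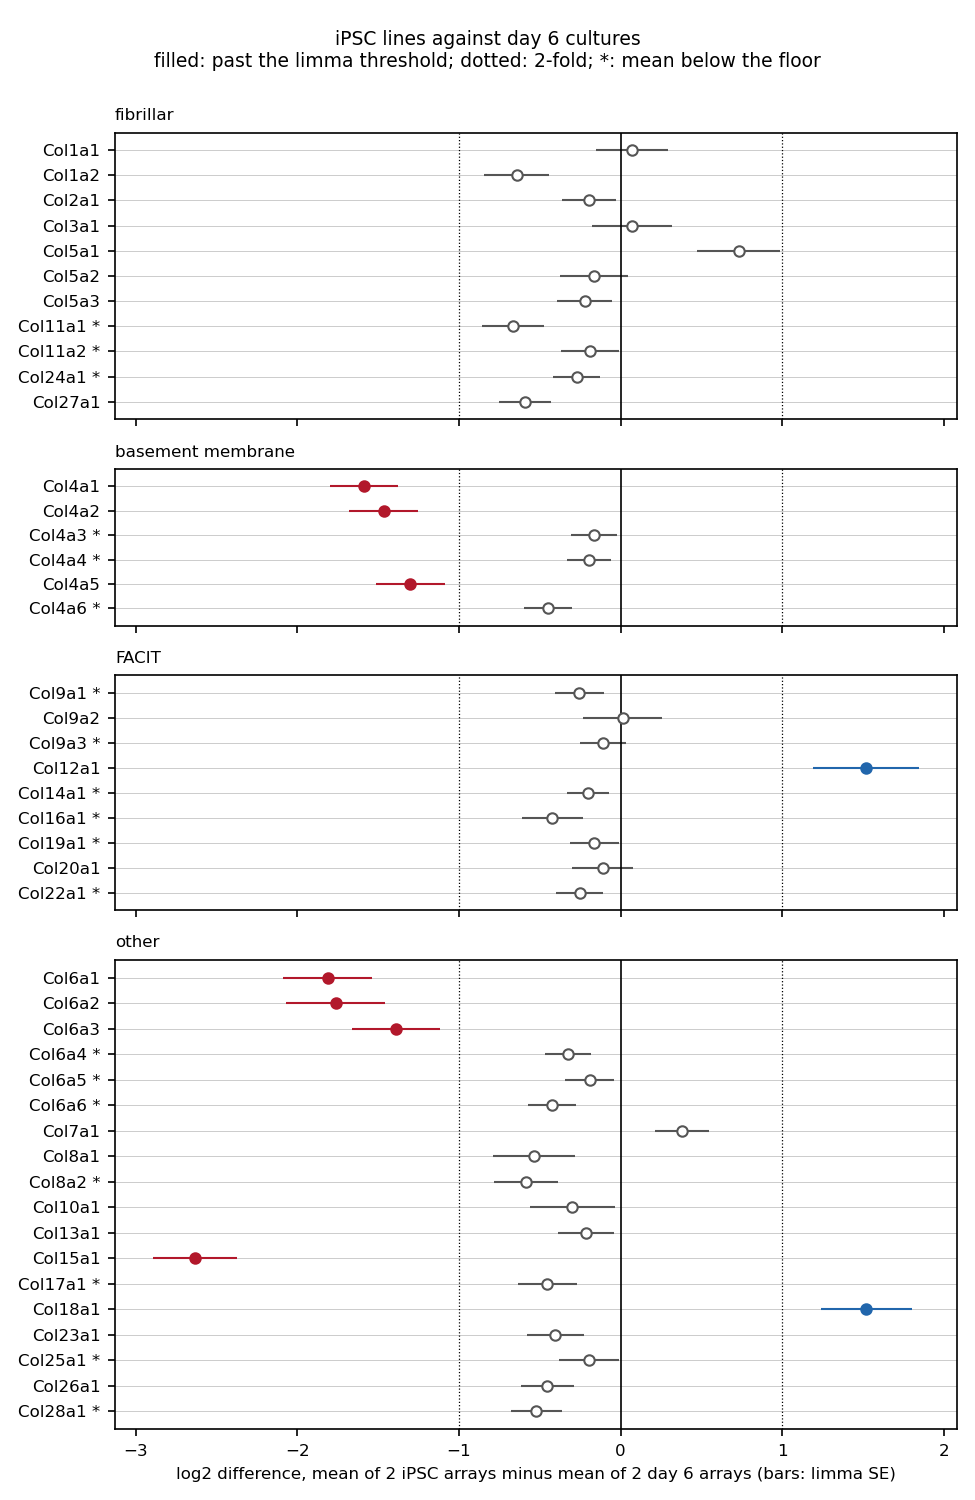
Log2 difference between the mean of the 2 iPSC arrays and the mean of the 2 day 6 arrays (x axis) for all 44 collagen genes (y axis) by class, with limma standard errors as bars; filled points passed the threshold, red for fell and blue for rose, and an asterisk marks a mean below the floor. The filled points are 3 basement membrane genes, Col6a1, Col6a2, Col6a3 and Col15a1 at -1.30 or lower, and Col12a1 and Col18a1 at 1.52.

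Of the main fibrillar genes of fibroblasts, Col1a1, Col3a1 and Col5a2 overlapped between lines and cultures, while Col1a2 was lower and Col5a1 higher in both lines without passing the test. Col1a1 and Col1a2 encode the chains of type I collagen, the main collagen of skin, tendon and bone. Col1a1 read 10.74 with Firefly knockdown, 10.13 in the labelled Sumo2 culture, 10.64 in the 38 h line and 10.38 in the 10 day line. The lines lay inside the range of the cultures (difference 0.07, SE 0.22, 95% interval -0.46 to 0.60, limma adjusted p = 0.827). Col1a2 read 10.90, 10.46, 10.21 and 9.87, with both lines below both cultures, and did not pass (-0.64, SE 0.20, limma adjusted p = 0.0533). Its second, dimmer probe set read 8.25, 7.47, 6.46 and 5.85, a difference of -1.70. With the median over both probe sets Col1a2 passed downwards (-1.17, limma adjusted p = 0.0207), so its call depends on the probe set. The 95% interval of Col1a2 as first read, -1.12 to -0.16, overlapped that of Col1a1. Whether the chains of type I collagen differed from each other was not tested.

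Col3a1, the chain of type III collagen in the fine fibres of soft tissue, read 8.28, 7.71, 8.23 and 7.90, and the groups overlapped (0.07, SE 0.25, 95% interval -0.52 to 0.66, limma adjusted p = 0.849). Col5a1 and Col5a2 encode type V chains, which start fibrils and limit their width. Col5a1 read 9.17, 8.44, 9.54 and 9.52, higher in both lines than in both cultures but not past the threshold (0.73, SE 0.26, 95% interval 0.12 to 1.34, limma adjusted p = 0.0755). Without the Firefly array it passed upwards (1.09, limma adjusted p = 0.0360); a second Col5a1 probe set near the floor differed by -0.21. Col5a2, the neighbour of Col3a1 on chromosome 1, read 8.02, 7.68, 7.84 and 7.53, with overlapping groups (-0.17, SE 0.21, limma adjusted p = 0.574). Col5a3 was at 7.04 to 7.38 on all arrays, with a difference of -0.22.

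The remaining fibrillar genes, most of them known from cartilage, stood close to the floor or differed little. Col2a1, the main cartilage collagen, read 7.70, 7.79, 7.50 and 7.61. Col27a1 read 7.51, 7.58, 6.99 and 6.92, lower in both lines by an adjusted p of 0.0376 (limma) but by 1.51-fold and so not past the threshold (-0.59, SE 0.16). Col11a1 was above the floor only in the Firefly culture, at 6.87, and below it elsewhere at 6.40, 5.95 and 5.99. Col11a2 and Col24a1 were below the floor on every array. Of 8 chondrocyte markers, 1 was at or above the floor in each day 6 culture and 3 in each line. The log2 of their summed level was 9.32, 9.32, 9.41 and 9.82 in the order Firefly, labelled Sumo2, 38 h and 10 day. Its members differed. In that order Sox9 read 8.12, 7.95, 7.49 and 7.22, Acan 6.42, 6.63, 7.41 and 7.23, and Matn1 5.61, 5.87, 5.88 and 8.52. The part of these markers in the cartilage collagen readings was not tested.

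Among the FACIT genes, Col12a1, whose product decorates type I fibrils, read 8.25 in the Firefly culture, 7.36 in the labelled Sumo2 culture, 9.57 in the 38 h line and 9.07 in the 10 day line. It rose 2.86-fold (1.52, SE 0.33, limma adjusted p = 0.0168), with both lines above both cultures. The labelled Sumo2 culture was the lowest array, and without it Col12a1 was at 1.07 and did not pass (limma adjusted p = 0.0604). Col9a2, one of 3 genes of type IX collagen, which coats cartilage fibrils, read 7.83, 8.07, 7.66 and 8.26, and the groups overlapped. Col9a1 and Col9a3 were below the floor on all arrays. Col20a1 was at 6.57 to 6.94, around the floor, and Col16a1 above it in the Firefly culture alone (6.88). Col14a1, Col19a1 and Col22a1 read 4.97 to 6.17 and were below the floor everywhere.

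Of the remaining collagens 0 passed the threshold. Col8a1, a chain of the short network collagen of vessel walls and the cornea, read 9.17, 8.59, 8.55 and 8.14, lower in both lines but short of the threshold (-0.54, SE 0.25, limma adjusted p = 0.157), and its partner Col8a2 was below the floor. Col7a1, the anchoring fibril collagen below the epidermis, read 6.82, 6.97, 7.33 and 7.22, higher in both lines and not past the threshold (0.38, SE 0.17, limma adjusted p = 0.133). Col10a1, a collagen of hypertrophic cartilage, read 7.01, 6.69, 6.90 and 6.21, so only the 10 day line was below the floor. Of the membrane-bound collagens, Col23a1 read 6.90 to 7.47, Col13a1 6.65 to 7.01, Col25a1 6.36 to 6.83 and Col17a1, a component of hemidesmosomes, 6.33 to 6.98. None of these membrane-bound genes passed the threshold. Col26a1 read 7.47, 7.56, 7.11 and 7.01 (-0.45, limma adjusted p = 0.0836), and Col28a1 was below the floor on all arrays. All 19 collagen genes with a mean below the floor had a negative difference, with a median of -0.25. The median of all 10666 such genes was -0.15, and 7723 of them were negative.

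At day 6 the comparison asked how the collagen genes of the labelled Sumo2 culture differed from the control, with 1 array against 1 and so no test. No collagen gene differed by 2-fold (background 0.532% of all genes higher and 0.18% lower), but small differences ran mostly downwards. Of the 25 genes with a mean above the floor, 17 were lower in the labelled Sumo2 culture (68%, background 45.4%), with a median difference of -0.34 against 0.03 over all 11514 such genes. At 1.5-fold, 6 of the 44 collagen genes were lower (13.6%, background 2.21%) and 1 was higher (background 2.71%). The 6 were Col12a1 (53.9% of the Firefly level), Col5a1 (60.3%), Col15a1 (64.7%), Col1a1 (65.8%), Col6a2 (65.9%) and Col6a3 (66.5%). Next came Col8a1 (67.1%) and Col3a1 (67.7%), just short of that size. The 1 higher gene was Col18a1, at 162% of the Firefly level.

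By class, the counts below are descriptions, and the difference between classes was not tested. Of the 8 fibrillar genes with a mean above the floor 6 were lower, all but Col2a1 (0.09) and Col27a1 (0.07), and their median was -0.39. Each of the 3 basement membrane genes above it was lower, Col4a1 by -0.34, Col4a2 by -0.42 and Col4a5 by -0.51. The Col6a1, Col6a2 and Col6a3 differences of -0.51, -0.60 and -0.59 lay close together. Of the 3 FACIT genes only Col12a1 was lower (-0.89), while Col9a2 (0.24) and Col20a1 (0.16) were higher. Of the 11 other collagens above the floor 7 were lower, with a median of -0.32, and the 4 higher ones were Col18a1, Col7a1 (0.15), Col23a1 (0.09) and Col26a1 (0.08). Over all 44 genes, with the dim ones included, the median was -0.14 and 26 were lower (59.1%, background 49.5%). The 19 dim genes had a median of 0.01. Beside this, 6 of the 10 fibroblast markers were at or above the floor in at least 1 of these cultures. All 6 were lower in the labelled Sumo2 culture (median -0.52). Of the 8 pluripotency markers 4 were readable in that way, and all 4 were higher (median 2.52). Of all 11740 genes readable in that way, 5430 were lower and 6308 higher (median 0.02). A gene above the floor in 1 culture alone reads higher there, so its direction was fixed by this rule. Such genes were Twist2 (6.69 in the Firefly and 5.86 in the labelled Sumo2 culture), Esrrb (6.14 and 7.04) and Tdgf1 (5.84 and 8.92). The part of these markers in the collagen differences was not tested.

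**Figure D3:**
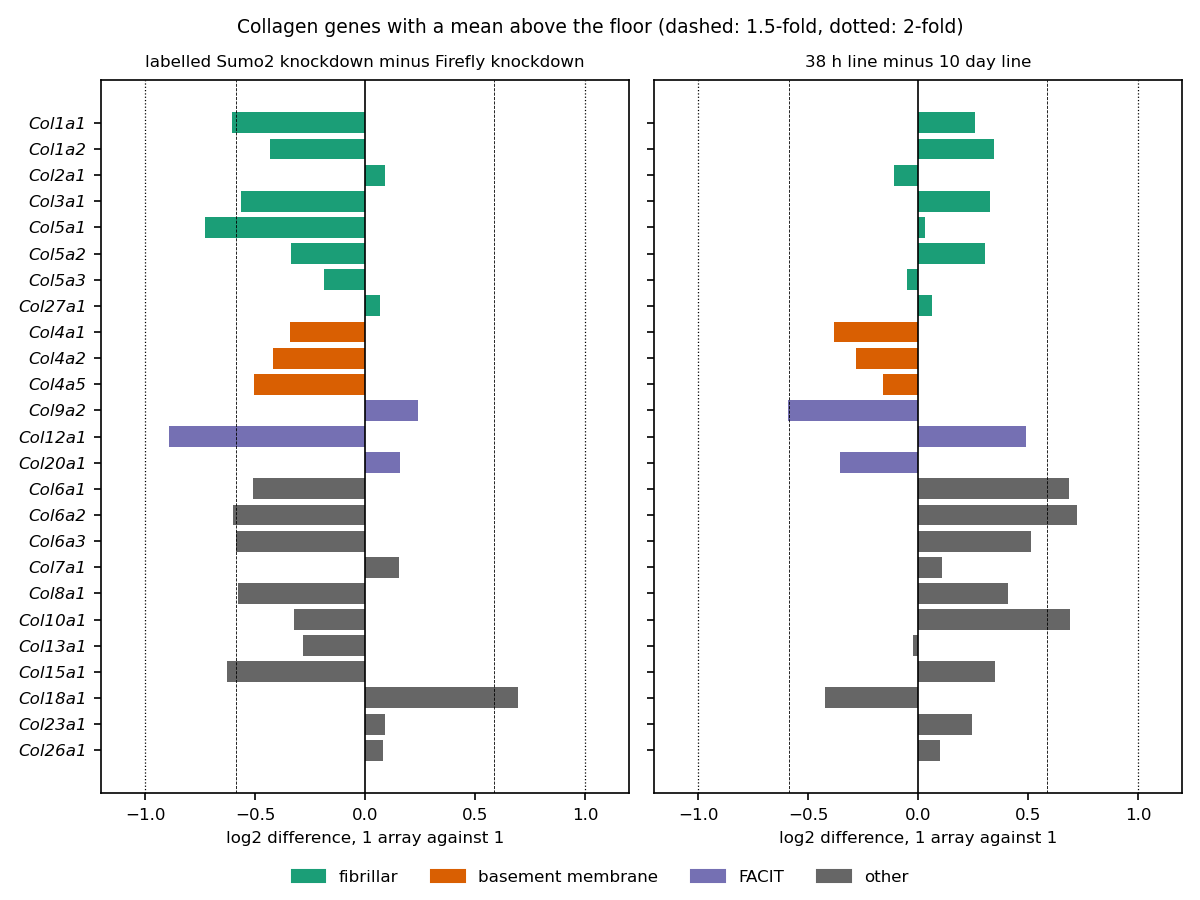
Log2 differences, 1 array against 1, of the 25 collagen genes with a mean above the floor (y axis), coloured by class: the labelled Sumo2 minus the Firefly culture on the left and the 38 h minus the 10 day line on the right. On the left 17 of 25 bars point to lower values, with Col18a1 (0.69) furthest the other way; on the right Col4a1 and Col4a2 point to lower and Col6a1, Col6a2 and Col6a3 to higher values in the 38 h line, while Col4a5 was below the floor in both lines.

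The day 6 and the iPSC differences of a gene were not always of one sign. These comparisons share both day 6 arrays, so their values are given side by side and not related by a test. Col4a1, Col4a2, Col4a5, Col6a1, Col6a2, Col6a3 and Col15a1 were lower in the labelled Sumo2 culture than in the control and lower again in the lines. Col18a1 was higher in it and higher again in the lines. Col12a1, Col5a1, Col1a1 and Col3a1 had their lowest value of all 4 arrays in the labelled Sumo2 culture, at 7.36, 8.44, 10.13 and 7.71, and the lines read above it.

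Between the iPSC lines no collagen gene differed by 2-fold (background 0.609% of all genes higher and 1.35% lower in the 38 h line). At 1.5-fold, 3 were higher in the 38 h line (6.82%, background 2.71%), Col6a2 (0.72), Col10a1 (0.69) and Col6a1 (0.69), and 1 was lower, Col9a2 (-0.59, background 4.19%). Col10a1 was below the floor in the 10 day line and differed by 0.23 counted from the floor, which leaves 2 higher genes. Col6a3 was higher by 0.51, Col12a1 by 0.49, Col8a1 by 0.41 and Col1a2 by 0.34. In the other direction, Col4a1 (-0.38) and Col4a2 (-0.28) were lower in the 38 h line, as was Col18a1 (-0.42). Col4a5, below the floor in both lines, and Col15a1, near or below it in both, gave no readable difference. The median was 0.05 over the 44 genes and 0.02 over all genes. Of the 10 fibroblast markers 7 were at or above the floor in at least 1 line, and 6 of these were higher in the 38 h line (median 0.45). Primitive and parietal endoderm markers are for cells that make much type IV collagen and laminin in the embryo. Of these 12 genes, 11 were readable in that way and 9 were higher in the 38 h line (median 0.86). Gata6 read 8.41 against 7.12 and the laminin gene Lama1 10.12 against 9.01. The 2 lower ones were Sparc (11.27 against 11.36) and Thbd (7.14 against 7.53). Of all 11754 genes readable in that way, 6176 were higher in the 38 h line and 5577 lower (median 0.02). Dcn (6.82 against 5.16) and Sox7 (7.17 against 6.20) were above the floor in the 38 h line alone, so this rule fixed their direction. Pdgfra is in both marker lists. Col4a1 and Col4a2 themselves stood the other way. The part of either marker list in the collagen differences between the lines was not tested.

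Collagen chains are modified, folded, cut, crosslinked and bound by a further set of genes, of which 44 of 49 listed ones were read. Of these 9 fell (20.5%, background 5.44%) and 5 rose (11.4%, background 8.3%) from day 6 cultures to iPSC lines, with a median difference of -0.24. Among the 36 with a mean above the floor these were 25% and 13.9%, against 8.83% and 14.1% of all such genes, so the share that rose was near the background. Their median was -0.18, against 0.17 over all such genes. The same backgrounds apply to the 5 lists below, whose counts are descriptions. In the group that hydroxylates and glycosylates chains, 2 of 14 genes rose, 2 fell and 10 did not pass. P4ha1 and P4ha2, catalytic subunits of the prolyl hydroxylase that stabilizes the helix, rose 3.39-fold (9.14, 8.79, 10.56 and 10.90 in the order Firefly, labelled Sumo2, 38 h and 10 day) and at least 3.75-fold (6.52 and 6.20, both below the floor, then 8.46 and 8.67). Their limma adjusted p-values were 0.00178 and 0.000864. P4hb, the subunit they share, read 11.04 to 11.19 and Ppib, a prolyl isomerase of the same compartment, 11.78 to 11.83. P3h4, a partner in lysine hydroxylation, fell 3.76-fold (10.80, 10.63, 9.0 and 8.61, limma adjusted p = 0.00116) and P3h3, which acts with it, 2.12-fold (-1.09, SE 0.17, limma adjusted p = 0.00518).

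Of 9 folding and export genes 2 fell, 0 rose and 7 did not pass. Serpinh1, the collagen chaperone HSP47, read 11.33, 11.35, 10.22 and 10.03 and fell 2.33-fold (-1.22, SE 0.13, limma adjusted p = 0.00149), with no visible difference between the day 6 cultures. The other was Creb3l2, a transcription factor of secretory cells (-1.04, SE 0.20, limma adjusted p = 0.0110). Of 7 propeptide cleavage genes, Pcolce2, an enhancer of the protease that trims procollagen, fell 2.33-fold (limma adjusted p = 0.00232). Tll1, a relative of that protease, rose at least 1.86-fold from below the floor (1.17 as read, limma adjusted p = 0.0127), and Adamts14, which removes the other propeptide, rose 2.08-fold (limma adjusted p = 0.00567).

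Of the crosslinking genes 3 of 5 fell and 0 rose, with a median difference of -1.01. Pxdn, the peroxidase that crosslinks type IV collagen, read 10.92, 10.83, 8.85 and 8.47 and fell 4.64-fold (-2.21, SE 0.18, limma adjusted p = 0.000673). The lysyl oxidase relatives Loxl3 and Loxl4 fell 2.50-fold and 2.02-fold (limma adjusted p = 0.00267 and 0.0179), while Lox, which crosslinks fibrillar collagen, was higher in both lines by 0.82 (limma adjusted p = 0.0103), under 2-fold. Of 9 collagen receptors, Ddr2, a receptor kinase for fibrillar collagen, fell 4.35-fold (10.96, 10.70, 8.71 and 8.71, limma adjusted p = 0.000554). Itga11, an integrin chain that binds type I collagen, rose 2.29-fold (7.78, 7.34, 8.99 and 8.52, limma adjusted p = 0.0138), and the other 7 receptors did not pass. The calls of P3h3, Creb3l2, Tll1, Loxl4 and Itga11 were each lost with at least 1 array left out, and that of Adamts14 with the median over its probe sets (0.17, limma adjusted p = 0.445) or after cyclic loess scaling (0.92, under 2-fold). Those of P4ha1, P4ha2, P3h4, Serpinh1, Pcolce2, Loxl3, Pxdn and Ddr2 held under every alternative run on them.

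**Figure D4:**
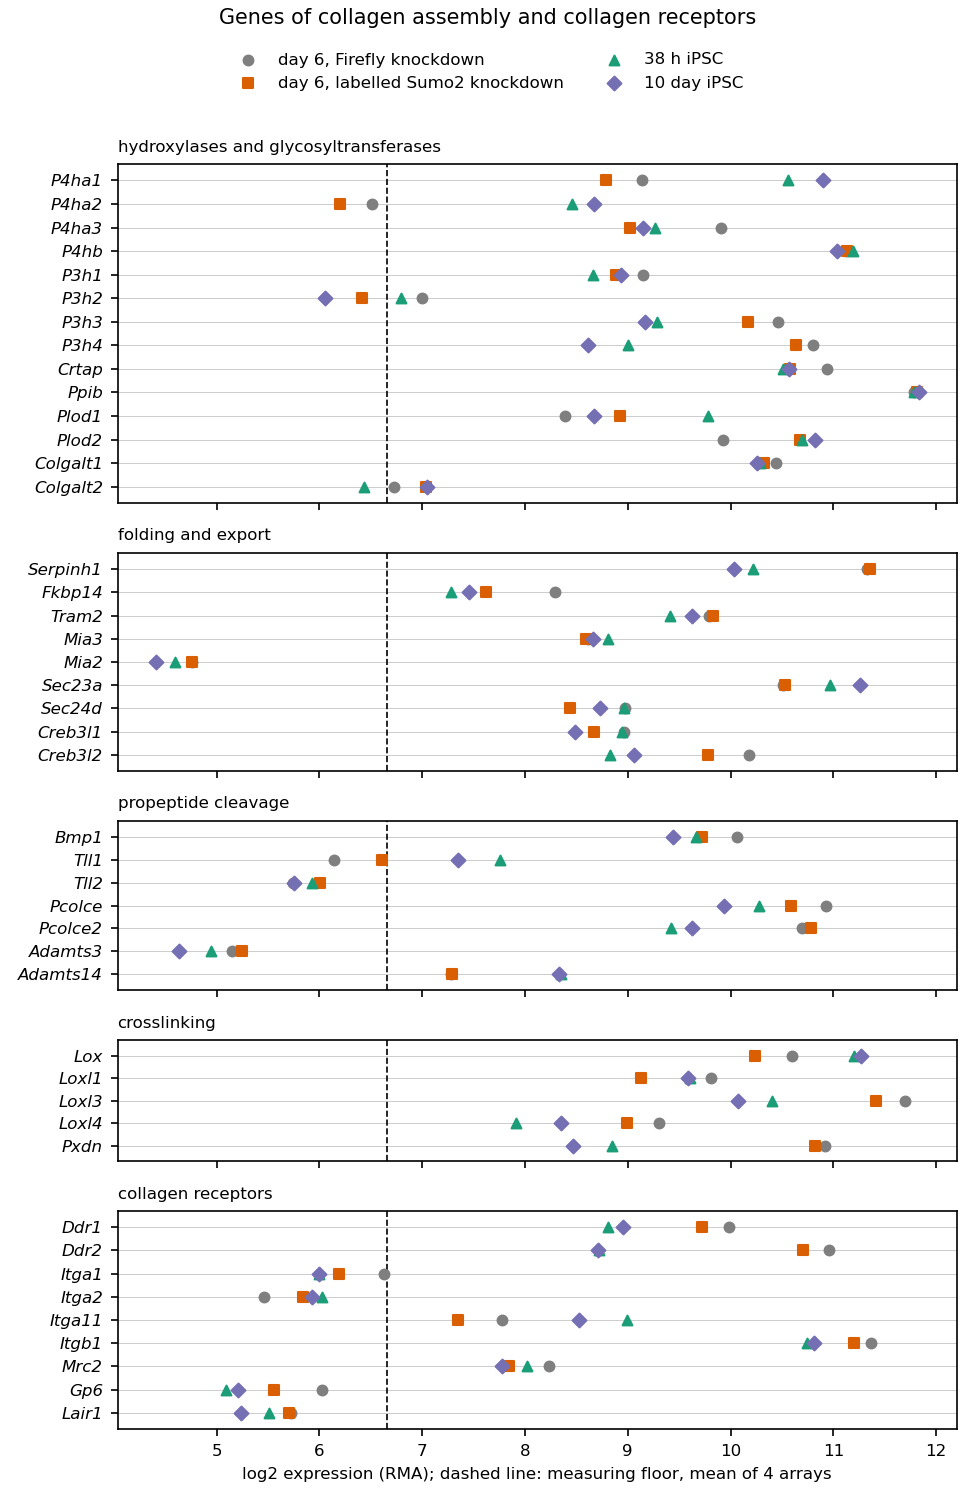
Log2 expression (x axis) of 44 genes of collagen modification, folding, cleavage, crosslinking and reception (y axis), 1 point per array and no error bars because each condition has 1 array; the dashed line is the mean measuring floor, 6.66. P4ha1 and P4ha2 lie to the right in both iPSC lines, and P3h4, Serpinh1, Pxdn and Ddr2 in both day 6 cultures.

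In the labelled Sumo2 culture these genes had a median of -0.26 relative to the Firefly culture. The median was 0.003 over all genes and 0.03 over those with a mean above the floor. At 2-fold there were 0 of 44 (background 0.532% of all genes higher and 0.18% lower). P4ha3 (-0.89), Loxl1 (-0.68) and Fkbp14 (-0.68) were the lowest and Plod2 (0.74), a lysyl hydroxylase, the highest. Between the lines Plod1, another lysyl hydroxylase, read 9.78 in the 38 h and 8.67 in the 10 day line. It was the only one of the 44 at 2-fold (background 0.609% of all genes higher and 1.35% lower in the 38 h line).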

How the data were processed

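Each of 4 mouse samples was hybridised to 1 array, giving 4 groups of 1. The authors deposited log2 expression values, 1 per probe set and array, made by RMA. Affymetrix Expression Console is the software named, per the submitters' processing notes, and its settings are not given in the sources used here. Base 2 was taken because RMA writes it; the table names no base. RMA includes quantile normalization, so a change in total RNA per cell cannot be seen. The number of arrays, rather than a depth, sets the precision.

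Of 41345 probe sets, 23521 carried 1 gene symbol (GEO's platform annotation), standing for 22180 genes; 1814 had several symbols, 1 of them with a collagen gene, and 16010 had none listed. Symbols were checked by Entrez identifier against a GRCm38.p6 gene table for 23328 probe sets. The iPSC and day 6 arrays were compared with limma 3.58.1 in R 4.3.3 (eBayes with intensity trend, 2 residual degrees of freedom, Benjamini-Hochberg over all genes, no filter), and single arrays by size alone. The fit was tested on simulated data in which the arrays of a side were replicates, unlike the arrays measured here. Promoter windows are RefSeq's. The collagen genes and the gene lists were chosen with earlier results of these data known. All collagen genes were named. Of each pathway list, up to 4 genes with the largest differences and those in counts of 5 or fewer were named. Of each marker list, up to 3 with the highest means were named. P4hb, Ppib, Postn, Pdgfra, Gata6, Lama1, Twist2, Esrrb, Dcn, Sox7 and Thbd fell outside this rule and were chosen after their values were seen. Alternatives covered the probe set rule, scaling, a filter, fold size, the trend, the floor and each array left out. Whether the cultures were independent is not in the labels, so the spread may be technical. Leaving out an array leaves 1 residual degree of freedom, with the lone array assumed to vary like the other pair.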

Additional observations from a re-analysis of the deposited data

How the results depend on the processing

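The iPSC calls held in most settings: cyclic loess, a filter on dim genes, no intensity trend and no size rule each left 7 to 9 collagen genes down and 2 up, and the median over probe sets gave 8 and 2. With each array left out in turn, 4 to 7 genes fell and 1 to 2 rose. Of 104 single collagen gene values recomputed, 97 kept their side of the threshold, 5 lost it, 2 gained it and 0 changed sign; of 112 for pathway genes, 101 kept it and 11 lost it. The recomputed collagen genes were those that fell or rose, and Col1a2, Col5a1, Col11a1 and Col27a1, which had not passed. The 5 losses were in Col6a1, Col6a2, Col6a3, Col12a1 and Col18a1, which had. With dim genes left out, the median difference was -0.34 for labelled Sumo2 minus Firefly. It was -0.40 for iPSC minus day 6 and 0.18 for 38 h minus 10 day. With values below the floor set to it, so that many genes read the same, these medians were 0.029, -0.032 and -0.011. The first and last changed sign, but they are only the gaps between the floors of the arrays compared. Every gene below the floor on both arrays takes that gap (15 and 20 of the 44), so the sign change says nothing about collagen genes. The size of the fold decided the day 6 and line counts, which at 1.5-fold were 1 higher and 6 lower with labelled Sumo2 knockdown, and 3 higher and 1 lower in the 38 h line, in place of 0. With values below the floor also set to it, an alternative chosen after seeing the data, these were 1 and 6, and 2 and 1. Cyclic loess moved the median of all genes from -0.06 to -0.03 for iPSC minus day 6. No paired analysis was possible because the labels carry no replicate numbers. Signal near the floor limits 15 collagen genes on every array, and with 1 array per condition no difference at day 6 or between the lines has a replicate check.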
